A study of Homo sapiens with 9 samples.

Results

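The genes described here are 47 genes for the repair of DNA double-strand breaks and interstrand crosslinks, chosen by name from the count table of an RNA sequencing study. They were 47 of the 24344 genes in the table, each was matched to a single Ensembl gene, and all 47 passed the filter on low counts that left 14195 genes tested. The choice covered homologous recombination, end resection, the helicases that resolve joint molecules, the Fanconi anemia pathway, damage kinases, end joining and mismatch repair.

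The cells were of the MDA-MB-231 line, which was established from a human breast adenocarcinoma and was grown with fetal bovine serum. All libraries came from cells treated for 48 h. One group received Compound Kushen Injection (CKI) at 2.0 mg/mL, which combines extracts of both herbs, and the other groups received Kushen injection or Baituling injection alone at the same ratio as in CKI. Each group had 3 libraries, 9 in all, which the series calls biological replicates, and nothing states that they came from separate cultures, so the p-values measure the spread between these libraries. Every group was treated, untreated libraries were not analysed here, and each comparison is between injections. The 3 comparisons share libraries in pairs and are not independent of each other.

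A double-strand break can be copied back from the sister chromatid by homologous recombination, which works mainly in S and G2 phase, or rejoined directly by non-homologous end joining, which works through the cycle. An interstrand crosslink blocks replication forks, and the Fanconi anemia proteins recognise it, mark the site by ubiquitin and pass the resulting break to recombination. Many of the genes for recombination and crosslink repair are transcribed most in dividing cells, whereas the end-joining factors are less tied to the cycle.

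The total count per library was 20144628 to 23782071, and levels are given as CPM, in which each gene's count is divided by the scaled size of its library. Of the markers for this line, VIM was at 336 to 2120 CPM, CD44 at 605 to 907 CPM and KRT8 at 505 to 1350 CPM over the 9 libraries, and CAV1, KRT18, EGFR and AXL were also detected. The hormone receptor genes ESR1 and PGR, listed as low or absent in this line, reached at most 0.177 CPM, and the blood marker PTPRC at most 0.386 CPM, the liver marker ALB at most 0.282 CPM and CDH1 at most 2.82 CPM. ERBB2 at 55.6 to 105 CPM and the glial marker GFAP at 6.63 to 12.1 CPM were detected although they had been listed in the same way. Baituling replicates 2 and 3 had the lowest totals, 20338416 and 20144628, and the other libraries had 22023427 or more. Genes with a count numbered 16259 to 16379 in the Baituling libraries and 17017 to 17786 in the CKI and Kushen libraries.

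Compared with Baituling, most of the repair genes were lower in both of the other treatments. In CKI against Baituling 32 of 47 passed the test as lower and 6 as higher, at an adjusted p under 0.05 in the edgeR quasi-likelihood test, where 37.0% of all genes tested were called lower and 39.1% higher (76.1% either way). The 6 higher genes were RAD50, FANCM, ATM, XRCC4, LIG4 and PMS2. The median log2 fold change over the 47 genes was -0.41, against 0.03 over all genes tested. Kushen against Baituling gave 28 lower and 8 higher, with 36.1% and 35.6% of all genes called (71.6% either way), and a median of -0.25 against 0.02. The same 6 genes were higher there, with WRN and ATR. CKI against Kushen, with 20.2% of all genes called lower and 19.6% higher (39.8% either way), gave 20 lower and 3 higher and a median of -0.12 against 0.01. In that comparison the 3 higher genes were RAD51C, TOP3A and LIG4. The 14 genes lower in all 3 comparisons were BRCA2, BARD1, BRIP1, XRCC3, EXO1, RMI2, FANCD2, FANCE, FANCG, UBE2T, CHEK1, CHEK2, XRCC5 and POLQ, and LIG4 was higher in all 3. Since the comparisons share libraries these calls are not independent, and 9.86% of all genes tested were lower and 7.59% higher in all 3. XRCC2, RAD52, RMI1, FANCB and FANCF passed in none.

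The 3 libraries of 1 treatment lay wholly below those of the other for 22 members in CKI against Kushen and wholly above for 4, where 24.2% and 25.2% of all genes tested did so (49.5% either way). For CKI against Baituling the numbers were 32 below and 7 above, with 38.0% and 40.3% over all genes (78.3% either way). For Kushen against Baituling they were 30 below and 7 above, with 36.7% and 36.4% (73.1% either way).

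Most of these changes were small. Past a log2 fold change of 1, the threshold of the study, no member passed in CKI against Kushen, where 1.7% of all genes tested did so upward and 0.197% downward. In CKI against Baituling 4 were lower past it, RAD51AP1, RAD51D, FANCG and RMI2, and LIG4 was higher, with 7.91% and 11.2% of all genes tested past it in those directions. Kushen against Baituling had RAD51AP1 and RAD51D lower past it and none higher, with 6.73% and 8.5% over all genes. On library totals, without TMM, the 4 lower genes were at -0.94, -0.91, -0.81 and -0.79 and LIG4 was at 1.37.

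The libraries of a group fell close together. Relative to the mean of Baituling, the median of the members on the log2 scale was -0.40, -0.39 and -0.41 in the 3 CKI libraries. It was -0.23, -0.24 and -0.25 in the Kushen libraries and -0.01, 0.04 and -0.01 in the Baituling libraries. The 3 groups did not overlap in this median. The median of all genes tested was between -0.00 and 0.04 in every library, which TMM scaling largely sets, since it centres most genes between libraries. On library totals, without TMM, the median log2 fold change over all genes was 0.32 for CKI and 0.23 for Kushen, both against Baituling. The means of 32 members rose in the order CKI, Kushen, Baituling, which 25.7% of all genes tested did, and RAD50, XRCC4 and LIG4 fell in that order, as did 28.4% of all genes.

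**Figure D1:**
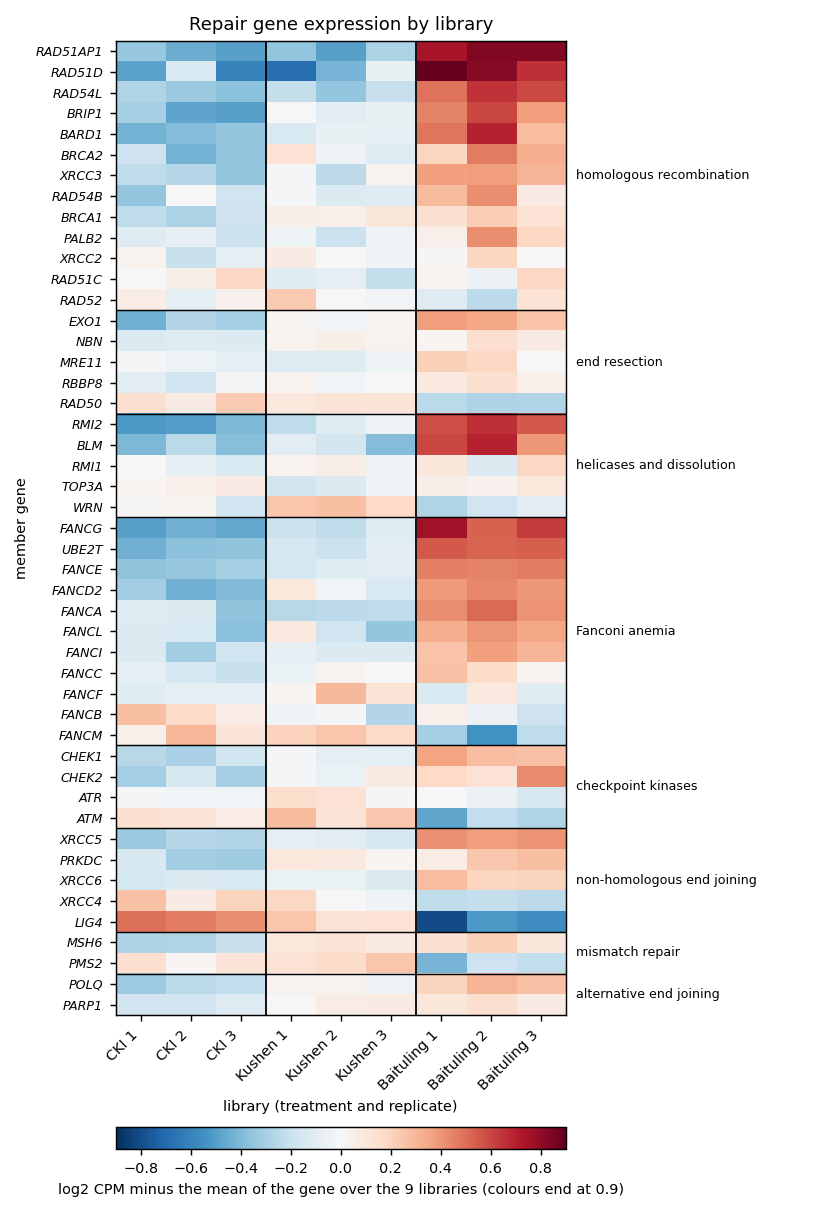
Heat map of log2 level of each of the 47 repair genes (rows, by role) in each of the 9 libraries (columns), relative to that gene's mean over the 9 libraries. Most rows turn lower from Baituling through Kushen to CKI, whereas LIG4, RAD50, FANCM and ATM are higher in CKI and Kushen than in Baituling.

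The same libraries also differed in genes of the dividing cell. Lists of 34 S phase genes and 31 G2 and M phase genes were set beside the repair genes. Of the S phase list 34 of 34 were lower in CKI against Baituling, with a median of -0.88, and its summed level was 1537 to 1658 CPM in CKI, 1772 to 1839 CPM in Kushen and 3206 to 3393 CPM in Baituling. All 31 G2 and M phase genes were lower there, with a median of -1.57, and summed to 1700 to 1720, 1962 to 2004 and 5372 to 5400 CPM. Of all genes tested 37.0% were lower in that comparison. In CKI against Kushen 19 S phase genes (55.9%) and 23 G2 and M phase genes (74.2%) were lower, against 20.2% of all genes tested. No gene of either list was at 0 in any group. In these bulk samples fewer cells in S, G2 or M phase and less RNA of these genes per cell cannot be told apart, and the part of either in the result for the repair genes was not tested.

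**Figure D2:**
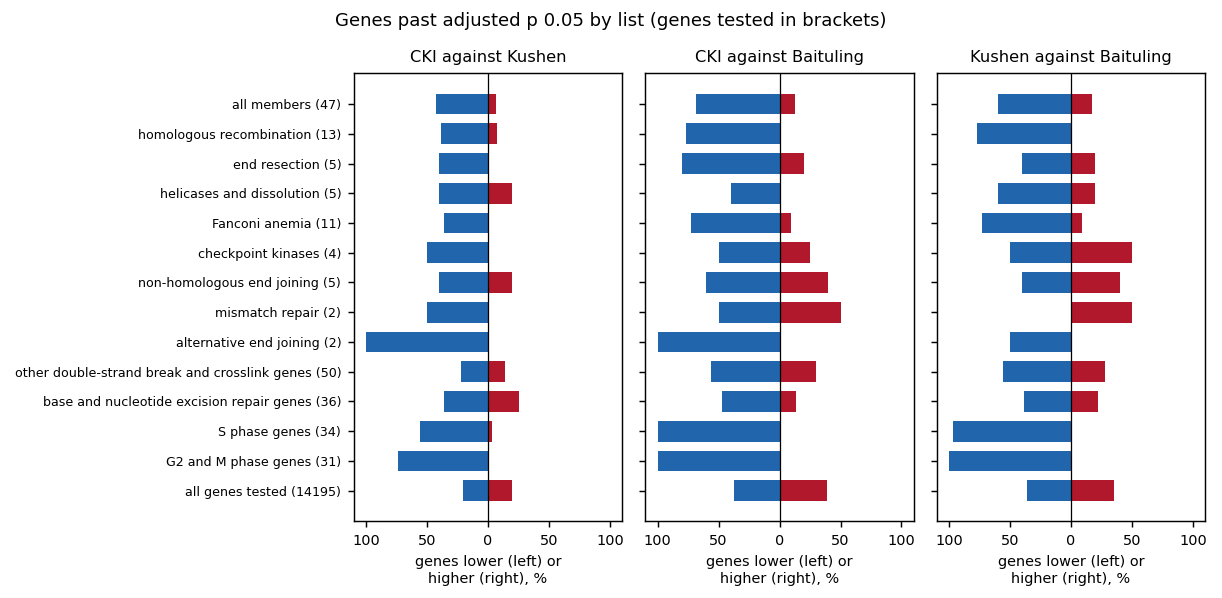
Share of genes, in percent of those tested in each list, that were lower (blue, left) or higher (red, right) at an adjusted p under 0.05 in the 3 comparisons, for the 47 repair genes, their roles, other repair lists, the cell cycle lists and all 14195 genes tested. In CKI against Baituling the lower bars of the S phase and the G2 and M phase lists reach 100%, against 68.1% for the repair genes and 37.0% for all genes tested.

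Scaling bears on these counts because the TMM factors were 0.877 to 0.899 in Baituling and 1.08 to 1.10 in CKI. Without them, on library totals, the median over the whole table shifted upward by 0.08, 0.29 and 0.21 for CKI over Kushen, CKI over Baituling and Kushen over Baituling. The members then gave 12 lower and 5 higher, 22 lower and 13 higher, and 18 lower and 14 higher, where 12.9% lower and 29.7% higher, 22.6% and 57.0%, and 24.6% and 50.6% of all genes were called. Higher calls as a share of the members' calls went from 13.0% to 29.4%, from 15.8% to 37.1% and from 22.2% to 43.8%. Over all genes tested that share went from 49.2% to 69.7%, from 51.4% to 71.6% and from 49.6% to 67.3%. Calls lost on library totals were those of BRCA2, BARD1, XRCC3, NBN, WRN, CHEK1, CHEK2 and POLQ in CKI against Kushen. Those lost in CKI against Baituling were BRCA1, PALB2, RAD54B, FANCC, CHEK2 and XRCC6, and in Kushen against Baituling BRCA2, PALB2, RAD54B, MRE11, EXO1, CHEK2 and POLQ. Beyond these, the falls of MRE11, NBN, RBBP8 and PARP1 reversed in direction in CKI against Baituling. Those of RAD51C, TOP3A and FANCC reversed in Kushen against Baituling.

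Short promoter sequences were examined for motifs of cell cycle genes, as a description, because most members moved together. RefSeq windows of 300 bases, 250 before and 50 after the start, on GRCh38.p14 were found for 40 of 47 members and were missing for FANCI, NBN, PRKDC, RAD54B, RMI2, WRN and XRCC5. An E2F-like site (TTTCCCGC, TTTCGCGC, TTTGCCGC or TTTGGCGC, on either strand) was present for 9 of 40 members (22.5%), namely EXO1, FANCA, FANCC, FANCD2, MSH6, PMS2, RMI1, XRCC2 and XRCC6, and for 3.99% of 27305 genes with a window. The CHR motif (TTTGAA or TTTAAA) was present for 7 of 40 (17.5%) against 27.9%, and CCAAT for 21 of 40 (52.5%) against 39.7%. The 9 include genes that fell and PMS2, which was higher in CKI than in Baituling, and XRCC2 and RMI1, which passed in no comparison. Bases -200 to 29 around the start are shown for 4 of them, in capitals where the E2F-like site or its reverse complement lies.
FANCD2 (chr3:10026237-10026466, plus strand): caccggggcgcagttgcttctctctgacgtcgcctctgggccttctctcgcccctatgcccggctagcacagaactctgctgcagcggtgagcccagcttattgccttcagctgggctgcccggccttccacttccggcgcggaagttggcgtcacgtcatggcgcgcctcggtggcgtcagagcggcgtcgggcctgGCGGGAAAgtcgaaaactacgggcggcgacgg
EXO1 (chr1:241848004-241848233, plus strand): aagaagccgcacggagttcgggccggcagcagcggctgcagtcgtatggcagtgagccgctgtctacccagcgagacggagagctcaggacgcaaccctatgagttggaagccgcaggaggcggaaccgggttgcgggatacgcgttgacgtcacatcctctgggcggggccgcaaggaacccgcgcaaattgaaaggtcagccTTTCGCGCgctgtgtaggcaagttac
FANCA (chr16:89816618-89816847, minus strand): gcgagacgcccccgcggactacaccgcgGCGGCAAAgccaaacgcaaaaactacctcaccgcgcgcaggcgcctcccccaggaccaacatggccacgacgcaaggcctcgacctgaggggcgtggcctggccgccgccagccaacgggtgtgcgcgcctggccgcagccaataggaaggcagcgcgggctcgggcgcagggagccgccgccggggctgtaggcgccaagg
PMS2 (chr7:6009077-6009306, minus strand): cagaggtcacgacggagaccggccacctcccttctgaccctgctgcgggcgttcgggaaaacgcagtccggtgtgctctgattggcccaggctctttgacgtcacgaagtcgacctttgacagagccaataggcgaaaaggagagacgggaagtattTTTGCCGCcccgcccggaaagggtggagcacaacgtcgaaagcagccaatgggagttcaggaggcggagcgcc
The first 3 of these were shown because they had the largest falls among the members with the site, so their direction was fixed by the choice. In CKI against Baituling FANCD2, EXO1 and FANCA fell by 0.78, 0.66 and 0.64 on the log2 scale, and PMS2 was higher by 0.37. A link between the site and the change was not tested.

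Homologous recombination was represented by 13 genes, of which 10 were lower in CKI against Baituling and none higher, with a median of -0.63. In that comparison 37.0% of all genes tested were lower and 39.1% higher. RAD51AP1 (chr12:4647964-4669213 on GRCh37), which stimulates the strand exchange reaction, was at 10.9, 10.1 and 9.83 CPM in the CKI libraries, 10.8, 9.81 and 11.3 CPM in the Kushen libraries and 23.1, 24.6 and 24.6 CPM in the Baituling libraries. Both of the former groups lay below all Baituling libraries and overlapped each other. The log2 fold change was -1.23 ± 0.079 (SE) for CKI and -1.18 ± 0.079 for Kushen, both against Baituling, with edgeR adjusted p of 2.79e-11 and 7.66e-11.

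RAD51D (chr17:33419240-33448541), a paralog that helps load the recombinase, was among the least expressed members, and it shares bases with a readthrough transcript on its own strand. It was at 2.86, 3.63 and 2.61 CPM in CKI, 2.49, 2.99 and 3.81 CPM in Kushen and 7.51, 7.02 and 6.29 CPM in Baituling, that is 62 to 154 reads a library. All Baituling libraries were above all others, and CKI and Kushen overlapped. CKI against Baituling gave -1.20 ± 0.16 (edgeR adjusted p = 1.22e-06) and Kushen against Baituling -1.17 ± 0.16 (edgeR adjusted p = 2.07e-06).

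BRIP1 (chr17:59756500-59940920), a helicase bound to BRCA1, separated all 3 groups. It was at 14.8, 13.1 and 13 CPM in CKI, 18.3, 17 and 17.4 CPM in Kushen and 24.8, 27.7 and 23.6 CPM in Baituling. CKI fell by 0.36 against Kushen (edgeR adjusted p = 0.00135) and by 0.89 against Baituling (edgeR adjusted p = 3.75e-09). RAD51C (chr17:56769934-56812972), the paralog that partners XRCC3, was at 18, 18.7 and 20.5 CPM in CKI, 16.7, 17 and 15.5 CPM in Kushen and 18.3, 17.3 and 20.5 CPM in Baituling. Kushen was lowest, below CKI by 0.22 (edgeR adjusted p = 0.032) and below Baituling by 0.19 (edgeR adjusted p = 0.0443), and that fall turned to 0.02 upward with library totals. The call against Kushen was lost without CKI replicate 2 or 3 or Kushen replicate 3 (edgeR adjusted p 0.0589 to 0.151), and the call against Baituling without replicate 1 or 3 of either group (0.0524 to 0.226).

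The tumor suppressors BRCA1 and BRCA2, which organise recombination, BARD1, the partner of BRCA1, and XRCC3, a paralog that helps load the recombinase, were lower in CKI than in both single-herb groups. BRCA1 was at 17.1, 16.5 and 17.6 CPM in CKI, 20.8, 20.7 and 21.6 CPM in Kushen and 22.1, 23.4 and 22 CPM in Baituling, and fell by 0.30 against Kushen and 0.40 against Baituling. BRCA2, BARD1 and XRCC3 passed as lower in all 3 comparisons, with log2 fold changes of -0.64, -0.88 and -0.63 against Baituling, against which no library decided the call. Against Kushen, BRCA2 was lost without CKI replicate 2 or 3 or Kushen replicate 1 (edgeR adjusted p 0.06 to 0.102), BARD1 without CKI replicate 1 or 2 or Kushen replicate 2 or 3 (0.0564 to 0.0838), and XRCC3 without CKI replicate 3 or Kushen replicate 1 or 3 (0.0576 to 0.0835). PALB2, which joins BRCA1 and BRCA2, RAD54L and RAD54B, translocases of the strand exchange step, were lower in CKI and Kushen than in Baituling, by 0.35, 0.90 and 0.44 for CKI. In Kushen against Baituling the call of PALB2 was lost without Baituling replicate 2 (edgeR adjusted p = 0.0762) and that of RAD54B without Kushen replicate 2 or 3 or Baituling replicate 1 or 2 (0.0604 to 0.116). XRCC2 was at 11.9 to 14, 13.3 to 14.4 and 13.7 to 15.6 CPM in CKI, Kushen and Baituling, and RAD52, an annealing factor, at 5.84 to 6.47, 6.08 to 7.28 and 5.26 to 6.74 CPM. Neither passed in any comparison.

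End resection, which trims break ends for recombination, had 5 genes, 4 of them lower and 1 higher in CKI against Baituling. There 76.1% of all genes tested were called either way, 37.0% lower and 39.1% higher. EXO1 (chr1:242011269-242058450), the long-range nuclease, was at 20, 22.5 and 21.9 CPM in CKI, 27.5, 26.5 and 27.5 CPM in Kushen and 35.1, 34.3 and 32.2 CPM in Baituling. The 3 groups did not overlap, and CKI fell by 0.34 against Kushen (edgeR adjusted p = 0.000301) and by 0.66 against Baituling (edgeR adjusted p = 1.41e-08).

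RAD50 (chr5:131891711-131982041), the structural subunit of the complex with MRE11 and NBN, was higher. It was at 42.8, 40.5 and 45.3 CPM in CKI, 41.2, 42 and 41.9 CPM in Kushen and 32.6, 31.8 and 32 CPM in Baituling. CKI and Kushen overlapped and both lay above Baituling, with log2 fold changes of 0.42 ± 0.056 (edgeR adjusted p = 1.48e-06) and 0.37 ± 0.056 (edgeR adjusted p = 6.9e-06). Its partners moved the other way by less: MRE11 fell by 0.19 and NBN by 0.20 in CKI against Baituling, and the resection cofactor RBBP8 by 0.19. These falls turned to 0.10, 0.09 and 0.10 upward with library totals, and the call of MRE11 was lost without Baituling replicate 1 or 2 (edgeR adjusted p 0.0521 and 0.0722).

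**Figure D3:**
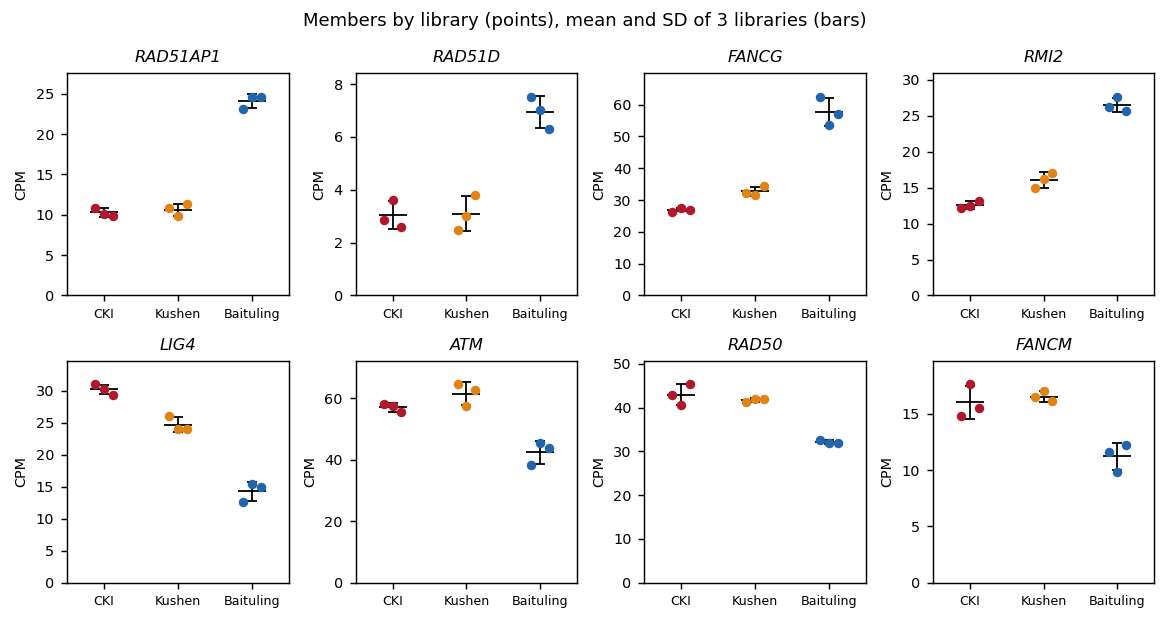
CPM in each of the 9 libraries (points) with mean and SD (n = 3) for 8 repair genes. RAD51AP1, RAD51D, FANCG and RMI2 are lower in CKI and Kushen than in Baituling, and LIG4, ATM, RAD50 and FANCM are higher.

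Of 5 genes for joint molecules, RMI2 (chr16:11343476-11475519), a subunit that stabilises the BLM complex, was lower past the fold. It was at 12.2, 12.4 and 13.2 CPM in CKI, 14.9, 16.2 and 17.1 CPM in Kushen and 26.2, 27.6 and 25.7 CPM in Baituling. No group overlapped, and the log2 fold change was -1.07 ± 0.074 in CKI against Baituling (edgeR adjusted p = 8.71e-11). BLM itself, a helicase, fell by 0.91 in CKI and by 0.78 in Kushen against Baituling.

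TOP3A (chr17:18174742-18218321), the topoisomerase of the complex, was lowest in Kushen at 43.2, 44.4 and 47.4 CPM, against 49.1, 50 and 50.9 CPM in CKI and 50.2, 49.8 and 51.7 CPM in Baituling. It was higher in CKI by 0.15 (edgeR adjusted p = 0.0213), a call lost without CKI replicate 2 or 3 or Kushen replicate 1 or 2 (0.06 to 0.0865), and the fall of 0.17 in Kushen against Baituling turned to 0.04 upward with library totals. WRN (chr8:30891304-31033654), a helicase and exonuclease, was highest in Kushen, at 14.8, 15 and 14.1 CPM against 12.5, 12.6 and 11 CPM in CKI and 10.3, 11 and 11.6 CPM in Baituling. It passed as lower in CKI against Kushen (-0.28, edgeR adjusted p = 0.00932, and 0.0531 without CKI replicate 3) and as higher in Kushen against Baituling (0.41, edgeR adjusted p = 0.000252). RMI1, the remaining subunit, was at 23.3 to 29.1 CPM over all libraries and passed in no comparison.

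The Fanconi anemia pathway had 11 genes, of which 8 were lower and 1 higher in CKI against Baituling, with a median of -0.57. The shares over all genes tested were 37.0% lower and 39.1% higher. FANCG (chr9:35073832-35080001), a subunit of the core complex, was at 26.4, 27.4 and 26.9 CPM in CKI, 32.3, 31.5 and 34.3 CPM in Kushen and 62.4, 53.5 and 57.1 CPM in Baituling. The groups did not overlap, and the falls were 0.28 for CKI against Kushen (edgeR adjusted p = 0.00164), 1.10 for CKI against Baituling (edgeR adjusted p = 3.71e-12) and 0.82 for Kushen against Baituling (edgeR adjusted p = 3.51e-10).

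FANCD2 (chr3:10068054-10143616), the protein that the core complex marks with ubiquitin, was at 13.8, 12.7 and 13 CPM in CKI, 18.3, 16.8 and 15.6 CPM in Kushen and 22.3, 23.1 and 22.4 CPM in Baituling. It also separated the 3 groups, with falls of 0.36, 0.78 and 0.42 in the 3 comparisons. UBE2T, the enzyme that delivers the ubiquitin, and FANCE, which bridges the complex to FANCD2, passed as lower in all 3 comparisons, by 0.92 and 0.79 in CKI against Baituling. FANCA, FANCI, FANCL and FANCC were lower in CKI and Kushen than in Baituling, by 0.64, 0.51, 0.57 and 0.31 for CKI. For FANCC in Kushen the fall of 0.17 was lost when any library other than Baituling replicate 3 was left out (edgeR adjusted p 0.0506 to 0.279) and turned to 0.04 upward with library totals.

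FANCM (chr14:45605133-45670093), the translocase that senses stalled forks, was the higher member, at 14.8, 17.6 and 15.5 CPM in CKI, 16.5, 17 and 16.1 CPM in Kushen and 11.6, 9.82 and 12.2 CPM in Baituling. Both of the former lay above Baituling, with log2 fold changes of 0.51 ± 0.092 and 0.56 ± 0.092 (edgeR adjusted p = 5.72e-05 and 2.16e-05). FANCB was at 3.55 to 5.14 CPM and FANCF at 7.22 to 9.68 CPM over all libraries, and both passed in no comparison.

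Among the damage kinases, the apical kinase ATM (chr11:108093771-108239829), which responds to breaks, was higher in CKI and Kushen. It was at 58.2, 57.4 and 55.5 CPM in CKI, 64.5, 57.3 and 62.7 CPM in Kushen and 38.2, 45.3 and 43.8 CPM in Baituling. CKI and Kushen overlapped and both lay above Baituling, by 0.43 ± 0.063 (edgeR adjusted p = 4.47e-06) and 0.54 ± 0.063 (edgeR adjusted p = 2.59e-07). The gene C11orf65 on the opposite strand shares exon bases with ATM, and unstranded reads cannot separate them. The same holds, with another counted gene, for XRCC3, RAD54L, RAD50, NBN, FANCA, FANCB, FANCC, FANCD2, FANCF, FANCI, FANCL, CHEK2 and MSH6. ATR, the kinase of stalled forks, was higher in Kushen than in Baituling by 0.16, a call lost without Kushen replicate 1 or 2 or Baituling replicate 2 or 3 (edgeR adjusted p 0.071 to 0.167).

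The effector kinases fell. CHEK1 (chr11:125495058-125546150) was at 47, 45.8 and 49.5 CPM in CKI, 55.3, 53 and 52.6 CPM in Kushen and 71.7, 68 and 67.3 CPM in Baituling, and CHEK2 (chr22:29083731-29138410) at 9.02, 10.1 and 9.08, then 11.1, 10.7 and 11.8, then 12.6, 12.2 and 15 CPM. The groups did not overlap for either gene, and CKI fell against Baituling by 0.54 for CHEK1 (edgeR adjusted p = 8.46e-09) and by 0.50 for CHEK2 (edgeR adjusted p = 9.86e-05). CHEK2 has 7 named pseudogenes. Against Kushen, CKI fell by 0.18 for CHEK1 (edgeR adjusted p = 0.00923, and 0.0555 without CKI replicate 2) and by 0.25 for CHEK2 (edgeR adjusted p = 0.04), which was lost without replicate 1 or 3 of either group (0.0604 to 0.123). In Kushen against Baituling the fall of CHEK2 was lost without Kushen replicate 2 or Baituling replicate 3 (0.0746 and 0.17).

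Non-homologous end joining had 5 genes, of which the 3 that bind break ends were lower and the 2 of the ligase complex higher in CKI than in Baituling. Calls over all genes tested made up 76.1% there, 37.0% lower and 39.1% higher. XRCC5 (chr2:216972187-217071026), which with XRCC6 binds break ends as Ku, was at 221, 233 and 231 CPM in CKI, 263, 259 and 252 CPM in Kushen and 371, 361 and 369 CPM in Baituling. The groups did not overlap, with falls of 0.18, 0.68 and 0.51 in the 3 comparisons, and in CKI against Baituling the edgeR adjusted p was 6.49e-12. XRCC6 fell by 0.37 in CKI and 0.30 in Kushen against Baituling.

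LIG4 (chr13:108859787-108870716), the ligase that seals the ends, was higher in all 3 comparisons. It was at 31, 30.2 and 29.4 CPM in CKI, 26.1, 24 and 24.1 CPM in Kushen and 12.6, 15.4 and 14.9 CPM in Baituling. The groups did not overlap, and the log2 fold change was 0.29 ± 0.068 for CKI against Kushen (edgeR adjusted p = 0.00235), 1.09 ± 0.075 for CKI against Baituling (edgeR adjusted p = 9.89e-11) and 0.80 ± 0.077 for Kushen against Baituling (edgeR adjusted p = 1.76e-08). Without Baituling replicate 1 the value in CKI against Baituling was just under the fold. Its cofactor XRCC4 was higher in CKI and Kushen than in Baituling, by 0.41 and 0.28. PRKDC (chr8:48685672-48872738), the kinase subunit recruited by Ku, was at 147, 131 and 130 CPM in CKI, 174, 173 and 165 CPM in Kushen and 170, 192 and 196 CPM in Baituling. CKI lay below both others, which overlapped, and fell by 0.32 against Kushen (edgeR adjusted p = 0.000143) and by 0.45 against Baituling (edgeR adjusted p = 5.52e-07).

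**Figure D4:**
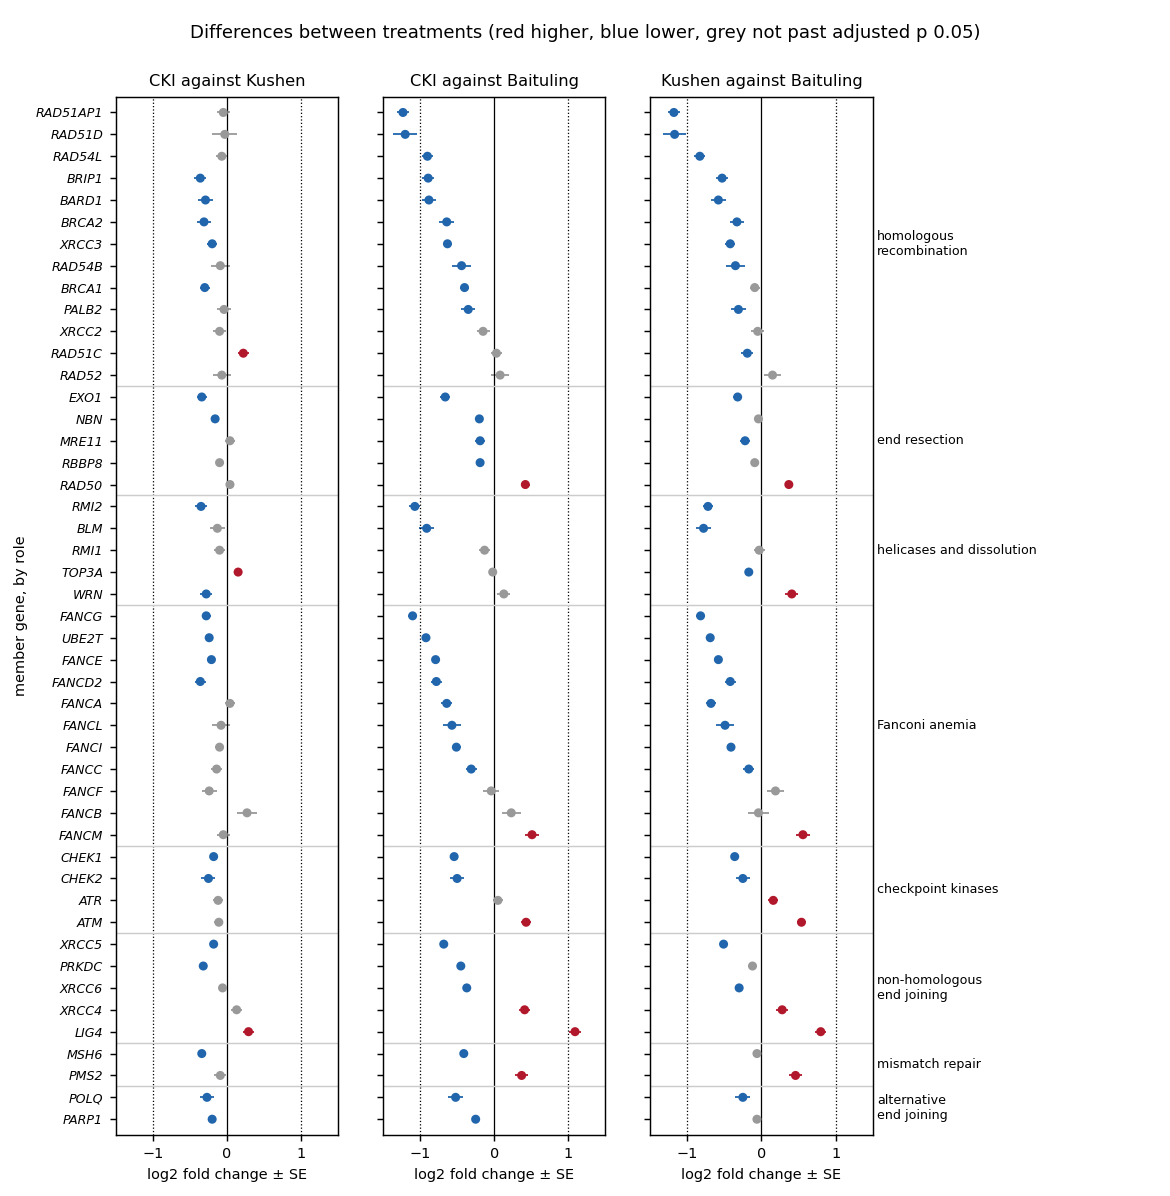
Log2 fold change of the 47 repair genes in each comparison, with the SE as bars and the genes grouped by role. Points left of 0 are lower in the first-named treatment. RAD51AP1, RAD51D, FANCG and RMI2 lie past -1 and LIG4 past 1 in CKI against Baituling.

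Mismatch repair and alternative end joining were represented by 2 genes each. MSH6 (chr2:47922669-48037202), a mismatch-binding subunit, was at 94.2, 94.6 and 99.7 CPM in CKI, 122, 124 and 121 CPM in Kushen and 126, 133 and 123 CPM in Baituling. CKI lay below the others, by 0.34 against Kushen (edgeR adjusted p = 5.47e-06) and 0.41 against Baituling (edgeR adjusted p = 7.88e-08), and Kushen and Baituling overlapped. PMS2 (chr7:6010556-6048761), an endonuclease of the same pathway, was higher in CKI and Kushen than in Baituling, at 14.1, 12.9 and 13.8 CPM and 13.9, 14.3 and 15.1 CPM against 9.51, 11.2 and 10.9 CPM. Its 12 named pseudogenes make its count uncertain.

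POLQ (chr3:121150278-121264835), the polymerase of end joining by microhomology, was at 5.49, 5.84 and 5.92 CPM in CKI, 7.04, 7.06 and 6.7 CPM in Kushen and 7.95, 8.55 and 8.28 CPM in Baituling. The groups did not overlap, and it fell by 0.52 in CKI against Baituling (edgeR adjusted p = 0.000137), while its call against Kushen (-0.27) was lost when any CKI library, Kushen replicate 1 or Kushen replicate 2 was left out (edgeR adjusted p 0.0571 to 0.12). In Kushen against Baituling (-0.25) it was lost without Kushen replicate 1 or 3 or Baituling replicate 2 or 3 (0.0505 to 0.097). PARP1, the sensor of single-strand breaks that also serves this route, was lower in CKI by 0.20 against Kushen and by 0.25 against Baituling, the latter turning to 0.03 upward with library totals.

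Other repair genes were set beside the 47 from a list of the same pathways. Of 50 other genes for break and crosslink repair tested, 28 were lower and 15 higher in CKI against Baituling, with a median of -0.19, and 11 lower and 7 higher in CKI against Kushen, with a median of -0.00. H2AX, the histone variant phosphorylated at breaks, fell by 1.67 in CKI and 1.55 in Kushen against Baituling. Of 36 genes for base and nucleotide excision repair, 17 (47.2%) were lower and 5 (13.9%) higher in CKI against Baituling, with a median of -0.15. Calls either way made up 61.1% of this list, against 76.1% of all genes tested. In CKI against Kushen 13 (36.1%) were lower and 9 (25.0%) higher, against 20.2% and 19.6% of all genes tested. APEX1, the abasic site nuclease, fell by 1.11 and UNG, the uracil glycosylase, by 1.30 in CKI against Baituling. POLB went the other way, higher by 1.59 in that comparison and by 0.82 in CKI against Kushen. In the latter it had the smallest adjusted p of this list (edgeR adjusted p = 8.64e-08).

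Between genes, levels were compared per kb of merged exon length in Baituling, on the CPM per kb scale. XRCC6, which has 5 named pseudogenes, was highest at 150 and XRCC5 next at 67.2, and UBE2T followed at 37.4. FANCL was lowest at 0.256, but on the length of its canonical transcript it was at 5.87, so its place depended on the length used.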

How the data were processed

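Total RNA of 9 libraries from MDA-MB-231 cells was sequenced as unstranded paired ends. Per the labels, the authors trimmed reads with Trim Galore 0.3.7, aligned them to hg19 with STAR 2.5.3a and deposited a table of raw counts per gene. The counting program and annotation are not given in the sources used here. The table had 24566 rows, of which 222 repeated an Ensembl gene and were dropped, leaving 24344 genes, and 0 columns of per-sample values were left unused. Names and positions came from GENCODE on GRCh37. Because libraries were unstranded, reads of overlapping genes on opposite strands could not be separated. Of the 47 members, 25 share exon bases with such a gene, which is in the table for 14. On the same strand 10 members share exon bases with another gene, which is in the table for 2, FSBP for RAD54B and STT3A for CHEK1. Besides CHEK2 and PMS2, named pseudogenes exist for BRCA1, RAD51AP1, RAD52, MRE11, RBBP8, FANCD2, XRCC6 and PARP1.

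Genes were filtered with filterByExpr, which left 14195 and removed 10149. All libraries entered a single edgeR 4.0.16 quasi-likelihood fit (R 4.3.3) with TMM scaling and group as the only term. P-values were two-sided and adjusted by Benjamini-Hochberg over all genes tested. CPM used the TMM-scaled sizes, and log2 fold changes are given with SE. With 3 libraries a group, exact permutation reaches no p below 0.1. The common biological coefficient of variation was 4.53%, and the chi-square per gene between replicates was 1.704 to 6.85, so no pair agreed within sampling noise. DESeq2 1.42.0, other scalings, other filters, a replicate block and leaving out each library were alternatives. The fit was tested on simulated data.

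The members and lists were chosen with earlier results of these data known. Values per library are given for members past adjusted p 0.05 and a log2 fold change beyond 1, and for the largest rise and fall of each role among called members in each comparison. Those of BRCA1, which met neither rule, are given as well. From each context list up to 2 genes with the smallest adjusted p were named.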

Additional observations from a re-analysis of the deposited data

How the results depend on the processing

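Leaving out each library in turn, the members lower in CKI against Kushen numbered 15 to 18 (20 with all libraries) and those higher 1 to 3, with the median log2 fold change between -0.17 and -0.11. In CKI against Baituling the genes higher past the fold numbered 0 to 1, LIG4 falling short without Baituling replicate 1, and the median was -0.43 to -0.38. In Kushen against Baituling 24 to 26 were lower. With library totals in place of TMM, CKI against Kushen gave 5 higher, 12 lower and a median of -0.04, CKI against Baituling 13 higher, 0 lower past the fold and a median of -0.12, and Kushen against Baituling 14 higher, 18 lower, 1 higher and 0 lower past the fold and a median of -0.03. Under that scaling MRE11 (0.10), NBN (0.09), RBBP8 (0.10) and PARP1 (0.03) reversed in CKI against Baituling, and RAD51C (0.02), TOP3A (0.04) and FANCC (0.04) in Kushen against Baituling, and the cause was not tested. Another 8, 6 and 7 calls were lost in the 3 comparisons, and 29.7%, 57.0% and 50.6% of all genes tested were then higher and 12.9%, 22.6% and 24.6% lower. Upper quartile scaling gave medians of -0.34 (CKI against Baituling) and -0.18 (Kushen against Baituling), and a minimum of 10 counts in every library gave -0.36 in CKI against Baituling. DESeq2 gave 1 higher in CKI against Kushen. With the replicate number as a block the calls were 3 higher and 19 lower in CKI against Kushen, 6 and 32 in CKI against Baituling, and 8 and 26 in Kushen against Baituling, which lost POLQ in the first and RAD51C and FANCC in the last and changed no other call. The deviations of same-numbered libraries correlated at -0.278 to 0.253, so the libraries share only a number. Per kb of canonical transcript XRCC6 was at 230 in place of 150. Depth limits RAD51D most among the genes past the fold, with 62 to 154 reads a library.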
